A study of Homo sapiens with 6 samples.

Results

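A set of 10 replication fork genes was followed in LN-229, a human glioblastoma cell line kept in culture, in 3 control-NC libraries and 3 sh-JMJD1C libraries. The genes, taken by symbol, are the sliding clamp PCNA, the clamp loader subunits RFC2 and RFC4, the catalytic polymerase subunits POLA1, POLE and POLD1, the flap endonuclease FEN1, the DNA ligase LIG1, and CHAF1A and CHAF1B, the large and middle subunits of the histone chaperone CAF-1. All 10 were found by symbol among the 58174 Ensembl genes of the deposited tables, and all 10 passed the filters of both fits, 18383 genes tested on FPKM and 11877 tested on reads. The labels call the cells control-NC treated or sh-JMJD1C treated, and state no hairpin sequence, duration, clone or harvest time. Both groups share nuclear-enriched RNA from which ribosomal RNA had been depleted. The labels do not say that a group's libraries are separate cultures, so the p-values measure only the spread between these libraries. Values of single libraries are listed in the order of their replicate numbers.

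At a replication fork, polymerase alpha lays down short primers, polymerase epsilon extends the leading strand and polymerase delta the lagging strand. The RFC complex opens the PCNA ring and closes it around DNA, which holds the polymerases in place. FEN1 and LIG1 trim and join the lagging-strand fragments, and CAF-1, which binds PCNA, deposits new histones H3 and H4 behind the fork. Many of these genes are known to be transcribed most strongly as cells enter S phase, under E2F factors. In bulk RNA of this kind, a different share of cells in S phase and a different amount of RNA per cell cannot be told apart. The values are those of nuclear-enriched RNA and need not equal those of whole cells.

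No member was called in the limma fit on FPKM. That was 0 of 10, beside 0.185% of all genes called there. For RFC2, FEN1, POLD1 and LIG1, 4 of the 10, the lowest sh-JMJD1C value was above the highest control value, beside 12.2% of all genes, and for the other 6 the groups overlapped. RFC2 went from 4.32 ± 1.71 to 15.9 ± 5.81 scaled FPKM (mean ± SD, n = 3 each), FEN1 from 12.6 ± 7.06 to 35.6 ± 5.98, and POLD1 from 1.11 ± 0.135 to 3.52 ± 2.12. Both CAF-1 subunits stayed close to their control means, CHAF1A at 13.1 ± 1.04 against 13.7 ± 3.24 and CHAF1B at 5.67 ± 2.09 against 5.60 ± 0.316. RFC2 was the 1 of 10 called on reads recovered from the FPKM (limma-voom log2 fold change 1.83, adjusted p = 0.0395), beside 5.52% of all genes. Scaled FPKM is the deposited value, fragments per length and library total, divided by 1 factor per library.

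Promoter sequence is one feature that the genes were not chosen by. RefSeq windows from 250 bases before to 50 bases after a start (GRCh38.p14) were available for all 10 genes, and were searched on both strands for the E2F site written as TTTCCCGC, TTTCGCGC, TTTGCCGC or TTTGGCGC. Of the 10 genes, 4 held a match, against 3.99% of 27305 genes with a window, 6.77% of the 9295 that were also tested on FPKM, and 19 of 58 partner genes described below. The matches started 59 bases before the start in PCNA, 137 in POLA1, 18 in POLE and 114 in LIG1. The CCAAT box, searched as CCAAT on both strands, was in 4 members, PCNA, POLA1, POLE and CHAF1A, and in 39.7% of all genes, and no member's E2F match overlapped one. A stretch before the outermost annotated start is shown for 4 genes, 5′ to 3′ on the gene's strand, with the E2F match in capitals: PCNA and POLA1 hold a match, RFC2 is the member called on reads, and CHAF1B is a member whose group means lay close together.
PCNA, chr20:5126627-5126776, minus strand: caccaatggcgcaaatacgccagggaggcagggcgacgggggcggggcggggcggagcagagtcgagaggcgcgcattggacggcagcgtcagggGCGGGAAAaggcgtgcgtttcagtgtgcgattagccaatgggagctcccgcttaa
POLA1, chrX:24693768-24693917, plus strand: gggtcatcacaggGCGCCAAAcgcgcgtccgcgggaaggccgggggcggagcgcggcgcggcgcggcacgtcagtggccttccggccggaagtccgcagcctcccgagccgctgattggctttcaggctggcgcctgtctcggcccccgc
RFC2, chr7:74254459-74254608, minus strand: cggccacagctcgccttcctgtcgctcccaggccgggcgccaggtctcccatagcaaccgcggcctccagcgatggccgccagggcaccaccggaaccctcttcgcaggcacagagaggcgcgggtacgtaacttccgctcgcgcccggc
CHAF1B, chr21:36385228-36385377, plus strand: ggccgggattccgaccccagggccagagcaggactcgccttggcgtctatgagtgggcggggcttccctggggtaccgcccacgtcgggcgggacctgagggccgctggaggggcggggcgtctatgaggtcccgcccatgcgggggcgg
Of the 4 genes with a match, the groups were apart for LIG1 and overlapped for PCNA, POLA1 and POLE. Of the 6 without one, they were apart for RFC2, FEN1 and POLD1 and overlapped for RFC4, CHAF1A and CHAF1B. These letters in a window are a description of sequence and say nothing of binding. For FEN1, RFC4 and LIG1 the window reached no base before the gene's outermost annotated start, so the sequence there was not searched.

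The libraries were shallow and uneven in depth, and libraries of a group also differed beyond counting error. PCNA, for example, had an exact 95% interval of 52.4 to 74.8 RPM (reads normalised to the library total) in control 2 and 131 to 159 in control 3. Recovered totals ran from 544442 reads in control 1 to 2960454 in control 3, and from 1660561 to 1919675 in the sh-JMJD1C libraries. The 10 genes together had 263 reads in control 1, 1564 in control 2, 2983 in control 3, and 1708, 1673 and 1440 in the sh-JMJD1C libraries. RNA of the signal recognition particle (RN7SL genes) took 0.378% to 1.77% of control reads and 1.18%, 15.7% and 18.5% in sh-JMJD1C 1 to 3, and the nuclear RNA MALAT1 took 1.25% to 2.40% and 0.0915% to 0.292%. The share of mitochondrially encoded RNA ranged from 2.93% to 8.70% among controls, and was 12.6% in sh-JMJD1C 1 but 1.33% and 1.70% in the other sh-JMJD1C libraries. The gene ENSG00000281181 took 25.03% of the reads of control 1, 1.32% of control 2 and under 0.001% of each other library, so control 1, also the shallowest, stood apart. MALAT1 was lower in all sh-JMJD1C libraries, the RN7SL share was high in sh-JMJD1C 2 and 3 only, and the part of these shares in the results below was not tested. Without control 1 the log2 fold changes of limma on FPKM were 1.39 for RFC2, 1.15 for FEN1, 1.11 for POLD1 and 0.31 for LIG1, and on reads 1.58, 1.28, 1.49 and 0.58, none of them called. Of 7 markers chosen for the line, VIM, CD44, CAV1, AXL and FN1 had at least 7 reads in every library, while NES had 2 to 20 reads and TNC 0 to 5 per library. Summed leukocyte markers reached 3.67 RPM in a control and 0 with sh-JMJD1C, neuronal markers 4.99 and 3.58, epithelial markers 5.99 and 4.17, and hepatocyte markers 0 in both. The oligodendrocyte list summed to 29.05 to 38.6 RPM in controls and 6.02 to 19.1 in sh-JMJD1C libraries, nearly all from MBP, with MOG at 0 reads throughout. JMJD1C itself had 3.97, 2.25 and 4.28 scaled FPKM in the controls, against 1.03, 0.251 and 0.657 after sh-JMJD1C (limma on FPKM gave a log2 fold change of -1.82 with adjusted p = 0.118, and limma-voom on reads gave -2.49 with adjusted p = 0.0253).

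**Figure D1:**
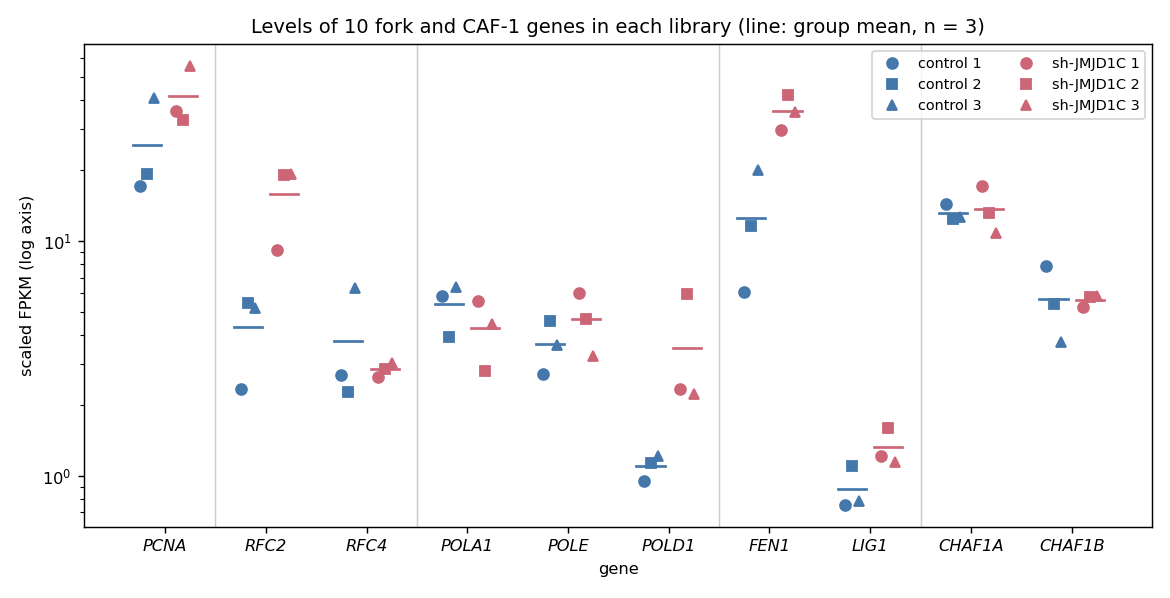
Scaled FPKM (log axis) of the 10 genes in each library, with control libraries in blue, sh-JMJD1C libraries in red, a marker shape per replicate number and a line at each group mean (n = 3). RFC2, POLD1, FEN1 and LIG1 have no overlap between the groups, and the control spread of PCNA, RFC4 and FEN1 comes with control 3 at the top.

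The clamp was the most abundant of the 10 genes per length in the controls. PCNA (ENSG00000132646, chromosome 20, 5114953 to 5126626, minus strand; all positions are hg38, counted from 1) had 17.2, 19.2 and 40.8 scaled FPKM in the controls, against 35.7, 32.6 and 55.7 after sh-JMJD1C. Control 3 lay above sh-JMJD1C 1 and 2, so the groups overlapped. Its log2 fold change was 0.74 (SE 0.46, 95% interval -0.35 to 1.83, adjusted p = 0.394 in limma on FPKM). Its pseudogenes PCNAP1, PCNAP3 and PCNAP4 were listed at 0 in all 6 libraries. With the trend over transcript length removed, limma-voom gave -0.01 on reads (adjusted p = 0.988), so its direction depends on that step.

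RFC2 had the largest fold change of the 10. The gene (ENSG00000049541, chromosome 7, 74231499 to 74254458, minus strand) encodes a small subunit of the loader's ATPase ring, and had 2.35, 5.43 and 5.17 scaled FPKM in the controls, against 9.18, 19.1 and 19.4 after sh-JMJD1C. The lowest sh-JMJD1C library was above the highest control, and sh-JMJD1C 1 was the nearest to the controls. In control 1 the value rests on 14 reads, or 25.7 RPM with an exact (Clopper-Pearson) 95% interval of 14.1 to 43.1, against 166 and 253 reads in control 2 and 3. The log2 fold change was 1.77 (SE 0.47, adjusted p = 0.143) in limma on FPKM and 1.83 (SE 0.44, 3.56-fold, adjusted p = 0.0395) in limma-voom on reads. That limma-voom call ended when any of 4 libraries was left out, with adjusted p of 0.141 for the first control, 0.127 for the third, 0.164 for the second sh-JMJD1C library and 0.1003 for the third, and with the length trend removed the value was 1.19 (adjusted p = 0.0882).

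RFC4 overlapped between the groups. The gene (ENSG00000163918, chromosome 3, 186789880 to 186807058, minus strand), another small subunit of the same ring, had 2.69, 2.27 and 6.29 scaled FPKM in the controls, against 2.65, 2.84 and 3.04 after sh-JMJD1C. Of the 6 libraries, 5 lay between 2.27 and 3.04, and control 3 alone stood above them. Its log2 fold change was -0.23 (SE 0.41, adjusted p = 0.765 in limma on FPKM) and 0.13 without control 3. EIF4A2, a translation initiation factor gene on the opposite strand, shares 21 exon bases with RFC4, and it had 273 scaled RPM in control 3 against 40.4 to 171 in the other libraries. Without a stated strand, reads in the shared bases cannot be told apart, and the part of EIF4A2 in the control 3 value was not tested.

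The ratio of RFC2 to RFC4 within a library does not depend on how libraries are scaled. Per exon base it was 1.27, 3.46 and 1.19 in the controls, against 5.03, 9.73 and 9.23 after sh-JMJD1C. The groups did not overlap, and the means were 1.97 ± 1.29 and 7.99 ± 2.58 (n = 3 each). With 3 libraries a group an exact permutation test cannot go below p = 0.10, so none is given for these ratios, and the pairs were chosen after the values were seen. A ratio shows unequal change and not which gene changed.

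Among the polymerases, POLD1 was the one whose groups were apart. POLD1 (ENSG00000062822, chromosome 19, 50384204 to 50418016, plus strand), the catalytic subunit of polymerase delta, had 0.957, 1.14 and 1.22 scaled FPKM in the controls, against 2.34, 5.97 and 2.25 after sh-JMJD1C. The controls were tight, with a highest to lowest ratio of 1.28, while sh-JMJD1C 2 was 2.66 times sh-JMJD1C 3. The log2 fold change was 1.21 (SE 0.42, adjusted p = 0.192) in limma on FPKM and 1.52 (SE 0.46, adjusted p = 0.0644) in limma-voom on reads, past the threshold in neither. Its reads rest on a length of 24269 bases, the smallest that makes all its values whole, and not on the annotated length used for the other 9 genes. POLD1 also shares 426 exon bases with AC020909.1, a gene on the same strand, and reads in those bases cannot be told apart.

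POLA1 and POLE showed no difference beyond their spread. POLA1 (ENSG00000101868, chromosome X, 24693919 to 24996986, plus strand), the catalytic subunit of polymerase alpha, had 5.87, 3.90 and 6.39 scaled FPKM in the controls, against 5.58, 2.81 and 4.42 after sh-JMJD1C. The log2 fold change was -0.32 (SE 0.37, 95% interval -1.21 to 0.57, adjusted p = 0.624 in limma on FPKM), and the interval allows a fall of more than 1 log2 unit. POLE (ENSG00000177084, chromosome 12, 132623753 to 132687365, minus strand), the catalytic subunit of polymerase epsilon, had 2.72, 4.58 and 3.63 in the controls, against 6.03, 4.67 and 3.25 after sh-JMJD1C. As for POLA1 and CHAF1A, sh-JMJD1C 1 was the highest of its group, and the groups overlapped. Its log2 fold change was 0.30 (SE 0.36, 95% interval -0.55 to 1.16, adjusted p = 0.631), and 1.09 (adjusted p = 0.104 in limma-voom) once the length trend was removed.

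Within libraries, the ratio of POLD1 to either other catalytic subunit was higher in all sh-JMJD1C libraries. Its ratio to POLE per exon base was 0.686, 0.484 and 0.655 in the controls, against 0.755, 2.49 and 1.34 after sh-JMJD1C. Its ratio to POLA1 was 0.272, 0.486 and 0.318 against 0.698, 3.53 and 0.846. Both pairs were apart between the groups, while the ratio of POLE to POLA1 overlapped (0.629 ± 0.328 against 0.992 ± 0.40). These ratios are not free of the trend over transcript length described below. The median log2 fold change on reads was 0.06 in the length class of POLD1, -0.46 in that of POLA1 and -0.77 in that of POLE. With the trend removed, limma-voom gave 1.58, 0.14 and 1.09 for the 3 genes, against 1.52, -0.28 and 0.38 before. The part of length in these ratios was not tested. Control 1 held 11 POLD1 reads, so its ratios carry a wide counting error. Its ratio of POLD1 to POLE, 0.686, lay close to the 0.755 of sh-JMJD1C 1.

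FEN1 and LIG1 act on the same lagging-strand ends, and both were higher in every sh-JMJD1C library. FEN1 (ENSG00000168496, chromosome 11, 61792637 to 61797244, plus strand) had 6.05, 11.6 and 20.1 scaled FPKM in the controls, against 29.7, 41.7 and 35.6 after sh-JMJD1C. The sh-JMJD1C libraries were within 1.40 times of each other, while the controls spanned 3.32 times, from 11 reads in control 1 to 299 in control 3. The log2 fold change was 1.61 (SE 0.48, adjusted p = 0.168) in limma on FPKM and 1.55 (SE 0.43, adjusted p = 0.0537) in limma-voom on reads. TMEM258, on the opposite strand, shares 166 exon bases with FEN1 and had a log2 fold change of 1.14 on reads (adjusted p = 0.155 in limma-voom), and reads in the shared bases cannot be told apart. Control libraries held 1.83 to 3.29 times as many FEN1 as TMEM258 reads and sh-JMJD1C libraries 2.30 to 5.29 times as many, so the ratio overlapped. FADS2, on the same strand, shares 49 exon bases with FEN1 and had a log2 fold change of 0.20 on reads (adjusted p = 0.750 in limma-voom). The ratio of FEN1 to FADS2 reads was 0.524, 0.474 and 1.20 in controls, against 1.31, 2.01 and 2.30 after sh-JMJD1C, with no overlap. Against the clamp, FEN1 was at 0.297, 0.509 and 0.415 per exon base in controls and 0.702, 1.08 and 0.539 after sh-JMJD1C, with no overlap.

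LIG1 was the least abundant member per length in the controls. LIG1 (ENSG00000105486, chromosome 19, 48115445 to 48170603, minus strand) had 0.754, 1.10 and 0.782 scaled FPKM in the controls, against 1.22, 1.61 and 1.15 after sh-JMJD1C. The gap between the groups was small, 1.10 in control 2 against 1.15 in sh-JMJD1C 3. As plain RPM the groups overlapped (22.0 to 44.9 against 33.7 to 42.9), so the separation depends on the scaling. The log2 fold change was 0.40 (SE 0.33, adjusted p = 0.513 in limma on FPKM). AC011466.3, on the opposite strand, shares 179 exon bases with LIG1 and had 0 to 13 reads per library. The ratio of FEN1 to LIG1 overlapped, with 2.43, 3.18 and 7.78 in the controls, against 7.41, 7.86 and 9.38 after sh-JMJD1C, and control 3 lay among the treated libraries.

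The CAF-1 subunits gave the smallest differences. CHAF1A (ENSG00000167670, chromosome 19, 4402662 to 4445018, plus strand) had 14.3, 12.5 and 12.6 scaled FPKM in the controls, against 17.2, 13.2 and 10.8 after sh-JMJD1C. CHAF1B (ENSG00000159259, chromosome 21, 36385378 to 36419015, plus strand) had 7.87, 5.41 and 3.72 in the controls, against 5.24, 5.76 and 5.81 after sh-JMJD1C. For both, the treated libraries fell on either side of the control mean. The log2 fold changes were 0.04 for CHAF1A (95% interval -0.74 to 0.82, adjusted p = 0.955 in limma on FPKM) and 0.04 for CHAF1B (-0.81 to 0.89, adjusted p = 0.958). These intervals leave room for sizeable changes either way, so equality is not shown. CHAF1B shares 89 exon bases with MORC3, and CHAF1A shares 20 with UBXN6 and 81 with AC011498.3, so their reads there are uncertain too. The ratio of CHAF1A to CHAF1B per exon base was 3.49 ± 1.13 in controls and 3.45 ± 1.02 in sh-JMJD1C libraries.

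**Figure D2:**
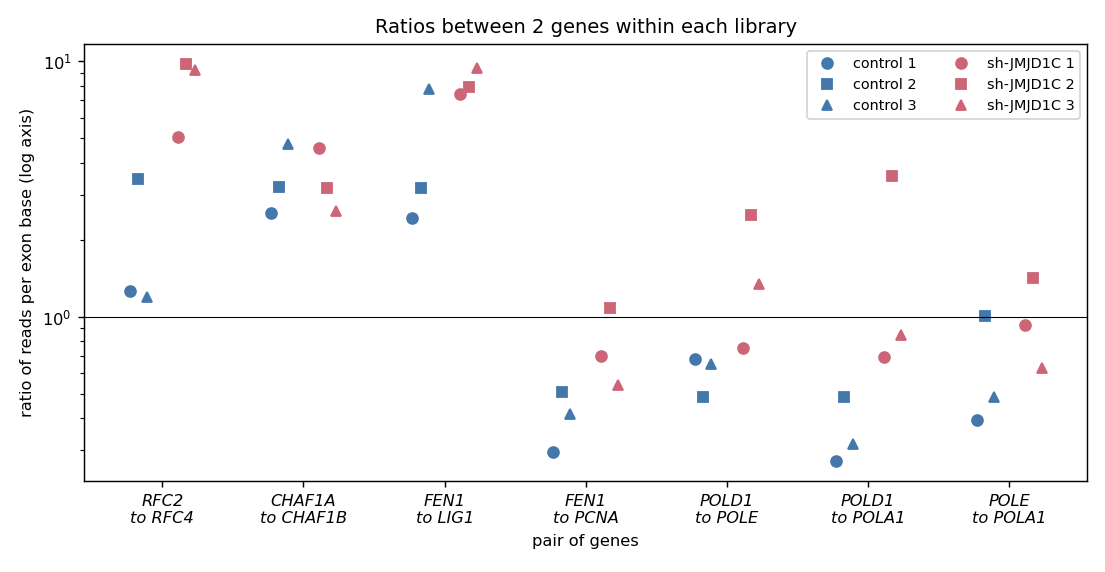
Ratios of reads per exon base (log axis) between pairs of genes within each library, with controls in blue and sh-JMJD1C libraries in red. RFC2 to RFC4, FEN1 to PCNA, POLD1 to POLE and POLD1 to POLA1 are apart between the groups, and CHAF1A to CHAF1B, FEN1 to LIG1 and POLE to POLA1 overlap. The trend of fold changes over transcript length is not removed from these ratios.

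Over the 10 genes, limma on FPKM called 0, against 0.185% of the 18383 genes tested, and limma-voom on reads called 1, against 5.52% of 11877. At an unadjusted p under 0.05 there were 3 members in either fit, RFC2, FEN1 and POLD1, beside 19.9% of all genes on FPKM and 30.8% on reads. On scaled RPM the groups of the same 4 genes were apart in the higher direction, beside 17.3% of all genes. In the lower direction 0 of 10 were apart, beside 14.5% of all genes on FPKM and 17.2% on RPM. Without sh-JMJD1C 1, limma-voom called 3 of 10 (19.7% of all genes), and without both libraries numbered 1 it called 1 (7.54%). With the replicate number as a block it called 4 (35.9%). The members' median log2 fold change was 0.35 on FPKM, where that over all genes tested was -0.16, and 0.50 against -0.08 on reads. Of the 10, 8 were above 0 in both fits and 6 were with FPKM as deposited, where the median over all genes was -0.38. Restricted to the 10169 protein-coding genes, limma called 2 members, RFC2 (adjusted p = 0.0331) and FEN1 (adjusted p = 0.0476), against 8.96% of genes called there. RFC2, FEN1, POLD1 and LIG1 kept a positive value in all 28 other settings run.

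**Figure D3:**
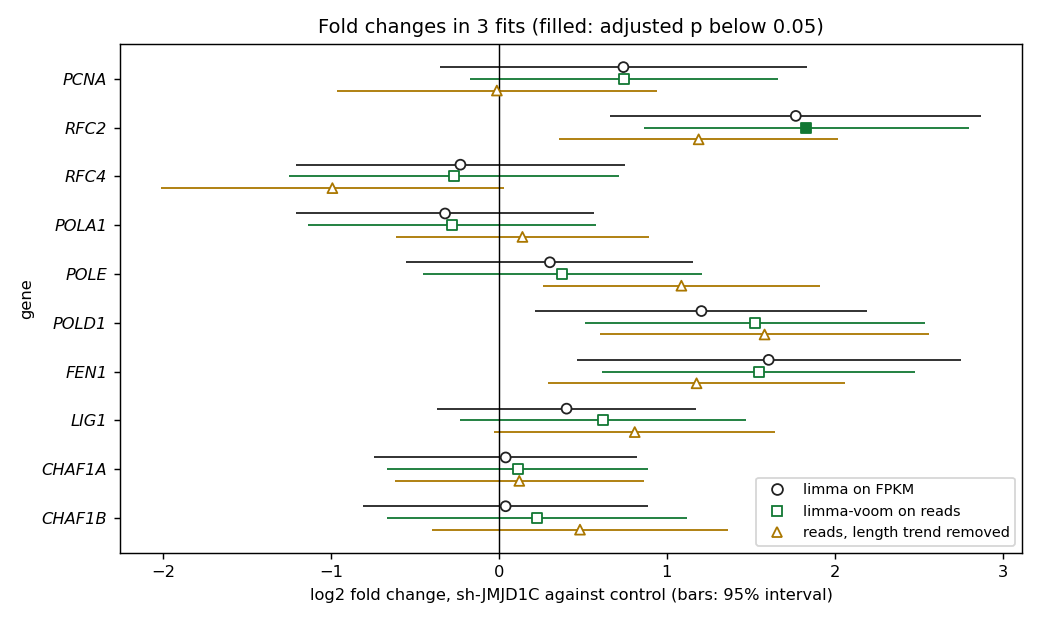
Log2 fold change of sh-JMJD1C against control for each gene with its 95% interval, in limma on FPKM (circles), limma-voom on reads (squares) and limma-voom with the trend over transcript length removed (triangles). The filled square of RFC2 is the one call at adjusted p below 0.05, and the triangle lies below the square for PCNA, RFC2, RFC4 and FEN1 and above it for the other 6.

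Fold changes on reads went with transcript length over all genes, and the members cover most of that range. The 1976 genes with the shortest longest transcript (61 to 1666 nucleotides), PCNA and RFC4 among them, had a median log2 fold change of 0.84, and the 1975 longest (6337 and more), POLE among them, had -0.77. PCNA at 0.75 was close to the median of its length class, RFC4 at -0.26 was well below it, and POLE at 0.38 was above its own. RFC2, FEN1 and POLD1 were above the medians of their classes, at 1.83 and 1.55 against 0.47 and at 1.52 against 0.06. After removal of the trend, POLD1 (1.58), RFC2 (1.19), FEN1 (1.18) and POLE (1.09) had the highest values, and 0 of 10 members were called in limma-voom, against 3.42% of all genes, with 4 members (26.2% of all genes) at an unadjusted p under 0.05.

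**Figure D4:**
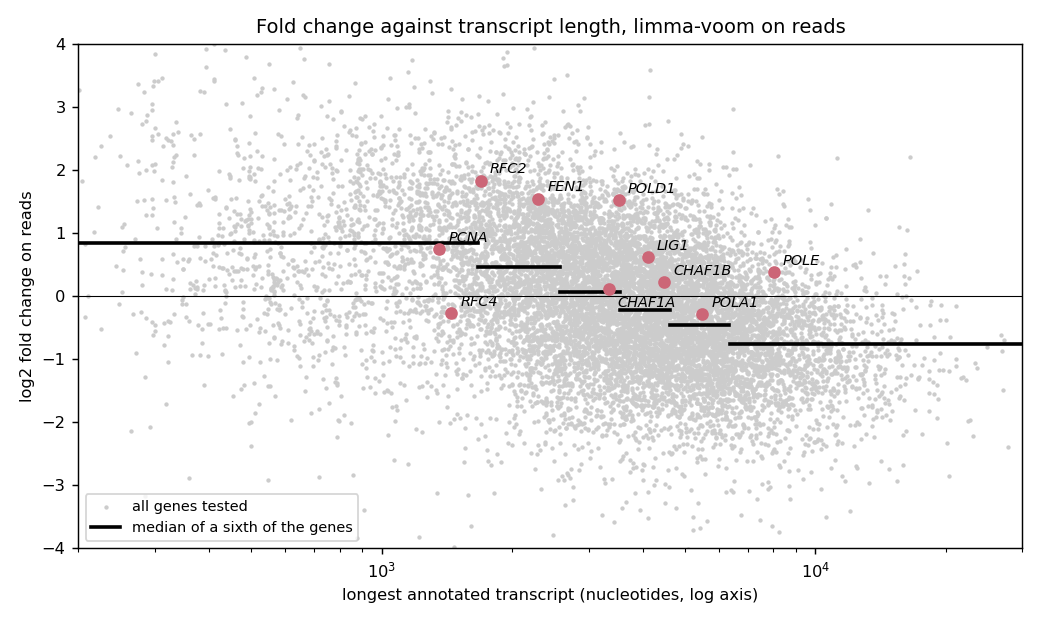
Log2 fold change on reads against the longest annotated transcript (log axis) for all genes tested (grey, 143 outside the axes), with black bars at the median of each sixth of the genes and the 10 members in red. The bars step down from 0.84 to -0.77, and 8 members lie above their bars while PCNA and RFC4 lie below.

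The deposited FPKM fitted a gene length summed over all transcripts, so levels between genes were compared as scaled RPM per kilobase of annotated exon. In the controls PCNA led with 45.9 ± 21.8, then RFC2 with 23.997 ± 9.18, CHAF1A with 21.7 ± 2.29, FEN1 with 18.9 ± 10.1, POLA1 with 15.6 ± 3.67, RFC4 with 14.3 ± 7.98, POLE with 9.01 ± 2.25, CHAF1B with 6.76 ± 2.68, POLD1 with 5.33 ± 0.501 and LIG1 with 4.42 ± 0.997 (SD, n = 3). PCNA and RFC2 had separate ranges over the libraries, and every other pair of neighbours in this order overlapped. In the sh-JMJD1C libraries RFC2 led with 92.8 ± 35.0, followed by PCNA with 77.4 ± 23.2 and FEN1 with 56.5 ± 10.6, and FEN1 was apart from CHAF1A, the next at 23.5 ± 5.24. POLD1 moved from rank 9 to rank 5 at 17.8 ± 11.1, followed by POLA1 at 12.8 ± 3.94, POLE at 11.97 ± 3.45 and RFC4 at 11.4 ± 0.908. RFC4 was apart from LIG1 at 6.91 ± 1.42, which overlapped CHAF1B, the last at 6.90 ± 0.50. The control levels placed PCNA at the 95.9th percentile of the protein-coding genes tested on reads, and LIG1 at the 41.2nd.

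The 73 partner genes of the fork, in 9 lists, were all found by symbol, and 67 were tested on FPKM and 71 on reads. Limma on FPKM called 0 of 67, and limma-voom called 6 higher and 1 lower of 71, beside 3.71% and 1.81% of all genes. On scaled FPKM the groups of 18 of 67 partners were apart in the higher direction and of 4 in the lower, beside 12.2% and 14.5% of all genes. In the CMG list 7 of 11 were apart higher and 0 lower, in the clamp loader list 0 of 8 higher and 1 lower, in the scaffold list 0 of 7 either way, and in the checkpoint clamp list 1 of 3 higher and 2 lower. Those called higher on reads were POLD2, RPA1, RNASEH2A, MCM5, GINS2 and ASF1B, and ATRX was called lower. The lists were chosen with earlier results of these data known, so these counts are descriptions.

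POLD1's partner subunit POLD2, which links the delta subunits, was called by limma-voom and rose from 159 ± 59.3 to 695 ± 333 scaled RPM (adjusted p = 0.0273, log2 fold change 2.08, SE 0.44). In the list of other polymerase subunits it was the 1 of 8 called, the median was 0.72 and PRIM1, the small primase subunit, had the lowest value on FPKM (-0.79, adjusted p = 0.574 in limma). POLD3, another delta subunit, named here after its values were seen, went the other way, from 55.2 ± 7.98 to 33.2 ± 16.9 scaled RPM. Its log2 fold change on reads was -0.80 (adjusted p = 0.227 in limma-voom), and its groups overlapped on scaled FPKM. The delta subunit POLD4 was tested in neither fit. Among the Okazaki fragment and single-strand binding genes 6 of 7 were above 0 on reads. Their median was 1.48, where that over all genes tested was -0.08, and 2 of 7 were called higher. RPA1, the large subunit of the single-strand binding protein RPA, went from 108 ± 12.3 to 306 ± 30.5 scaled RPM (adjusted p = 0.0337), and RNASEH2A, the catalytic subunit of RNase H2, from 45.7 ± 5.86 to 222 ± 124 (adjusted p = 0.0328, both in limma-voom). Of the other RNase H2 subunits, RNASEH2B had -0.41 on reads (adjusted p = 0.633 in limma-voom). RNASEH2C, named here after its values were seen, went from 50.4 ± 12.3 to 195 ± 110 scaled RPM. Its log2 fold change on reads was 1.75 (adjusted p = 0.0549 in limma-voom), and its groups were apart on scaled FPKM.

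In the CMG helicase, which unwinds DNA ahead of the polymerases, 10 of 11 genes were above 0 on reads and the median was 1.03. Of the 11, 2 were called higher, GINS2 from 31.9 ± 2.14 to 125 ± 48.2 scaled RPM (adjusted p = 0.0330 in limma-voom) and MCM5 from 103 ± 20.8 to 283 ± 66.6 (adjusted p = 0.0451). MCM6 had -0.03 (adjusted p = 0.967 in limma-voom). Among histone chaperones and maintenance factors at the fork the median was 0.07 on reads, 5 of 9 were above 0 and 1 was called higher. It was ASF1B, which hands histones to CAF-1, from 26.7 ± 18.5 to 127 ± 31.8 (adjusted p = 0.0370), with MMS22L lowest (-0.65 on FPKM, adjusted p = 0.515 in limma). With the length trend removed, POLD2, RPA1, RNASEH2A, GINS2 and MCM5 were still called and ASF1B was not (adjusted p = 0.0752 in limma-voom). In that fit the list medians were 0.27 for the other polymerase subunits, 1.13 for the Okazaki list, 0.68 for CMG and 0.77 for the chaperones at the fork. The chaperone median was thus above that of CMG there and below it before, so this order depends on that step. The remaining lists had medians of -0.58 to -0.04 in that fit.

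The remaining lists held no call in the higher direction. The clamp loader list had 0 of 7 called on reads and a median of -0.01. Its large subunit RFC1 had the lowest value on FPKM, with all treated libraries below the controls (82.4 ± 18.6 and 33.1 ± 16.2 scaled RPM, with -1.41 and adjusted p = 0.0814 in limma-voom), and CHTF8 the highest (0.54, adjusted p = 0.417 in limma on FPKM). The other small subunits, named here after their values were seen, were RFC3 at -0.01 (adjusted p = 0.993) and RFC5 at 0.39 (adjusted p = 0.516) on reads in limma-voom, so RFC2 was the only one of RFC1 to RFC5 called. Fork scaffold and checkpoint genes had 0 of 7 called, between TOP1 (-0.74) and TIMELESS (0.43) on FPKM. Of the chaperones that act outside replication 1 of 6 was called, ATRX, which fell from 180 ± 100 to 36.7 ± 19.9 scaled RPM (adjusted p = 0.0469 in limma-voom) and was not called with the length trend removed (adjusted p = 0.133), while DAXX had 1.07 and DEK -2.04 on FPKM. Repair and translesion polymerases and ligases had 0 of 12 called and a median of -0.28 on reads, with 4 of 12 above 0. The 8 that were also tested on FPKM lay between POLH (-0.35) and POLB (0.37) there. Those tested on reads only were lower, REV3L at -1.80, POLI at -1.64, POLK at -1.61 and LIG4 at -1.16 on reads. Their adjusted p in limma-voom were 0.0926, 0.164, 0.144 and 0.512, and LIG4 had 2 to 5 reads in each sh-JMJD1C library. With the length trend removed the same genes had -0.96, -1.12, -1.12 and -0.96, and the median of the list was -0.10. The checkpoint clamp and its loader had 0 of 4 called and a median of -0.76 on reads, with RAD9A at 1.08 and RAD1 at -0.99 on FPKM. RAD17, tested on reads only, had -1.91 there (adjusted p = 0.0651 in limma-voom). All 7 partner calls were lost when control 1, control 3, sh-JMJD1C 2 or sh-JMJD1C 3 was left out, and RPA1 and ATRX were also lost without control 2 and sh-JMJD1C 1, respectively.

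**Figure D5:**
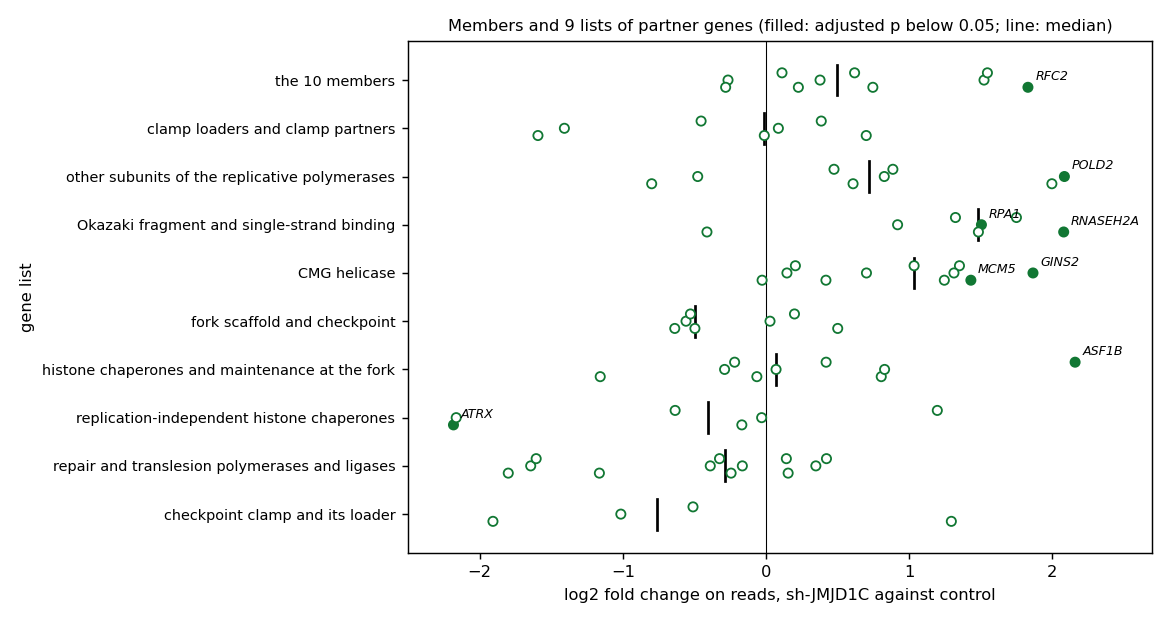
Log2 fold change on reads of the 10 members and of 9 lists of partner genes, 1 point a gene, filled where limma-voom gave an adjusted p below 0.05, with a line at each list's median. Of 71 partner genes 7 are filled, 6 of them above 0, and none lies among the clamp loaders, the scaffold genes, the repair enzymes or the checkpoint clamp.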

How the data were processed

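The deposited values were FPKM per Ensembl gene, computed by the authors and given in 1 file per library, per the file headers. The submitters' processing notes name Bowtie 0.12.2 and hg38, with no role given, while counter, annotation and strand setting were not given in the sources used here. Libraries were grouped by title. FPKM were divided by median-ratio factors and tested with limma 3.58.1 (R 4.3.3) with a mean-variance trend, on log2(value + 0.5), where mean FPKM reached 0.5, with Benjamini-Hochberg adjustment at 0.05. Fold changes are on that scale and understate the change of low genes. Whole reads were recovered from the FPKM, the gene length (GENCODE 29) and the library total, within 0.05 reads, and tested with limma-voom where a gene had 60 or more reads in all. In a further fit a lowess trend (span 0.3) of each library's values over the longest transcript was removed. The read recovery and both fits were also run on simulated libraries. Those for the fits had the same spread for all genes and no trend over transcript length, so they cannot speak for the calls made here. Exact intervals of RPM cover counting error only, and 3 reads correspond to 1.01 to 5.51 RPM across the libraries. Named genes are the 10 members, JMJD1C, each partner called in either fit, and the partner with the largest and the smallest fold change on FPKM in each list. Members, lists and tests were chosen with earlier results of these data known.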

Additional observations from a re-analysis of the deposited data

How the results depend on the processing

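Limma on FPKM called 34 genes in all and 0 members. The number of genes was 84 with a pseudocount of 0.1, 0 with 1, 0 with no filter, 79 with FPKM as deposited, 2 with quantile normalization, 118 with array weights, 0 without both libraries numbered 1, and 911 among coding genes, where 2 members were called. Leaving out single libraries gave 0 to 698, the latter without sh-JMJD1C 1. On reads limma-voom called 656 genes and 1 member, 1195 genes with library totals, 1136 with totals less technical RNA, 406 with the length trend removed, and 895 with 1 member without both libraries numbered 1. Leaving out single libraries on reads gave 31 to 2334 genes and 0 to 3 members: 39 genes without control 1, 1288 without control 2, 40 without control 3, 2334 (with the 3 members) without sh-JMJD1C 1, 31 without sh-JMJD1C 2 and 97 without sh-JMJD1C 3. RFC2 also lost its call on reads with library totals (adjusted p = 0.0602) and totals less technical RNA (adjusted p = 0.0522).

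The replicate number as a replicate block gave 0 genes on FPKM, and on reads 4260 genes, 4 members (PCNA, RFC2, POLD1 and FEN1) and a median of 0.51. The numbers do not settle whether libraries were paired: deviations of same-numbered libraries correlated at 0.0089, 0.14 and 0.22 across genes. Controls 2 and 3 each correlated best with the sh-JMJD1C library of the same number. Control 1 correlated best with sh-JMJD1C 3, at 0.027.

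The members' median log2 fold change was 0.35 on FPKM, 0.10 with FPKM as deposited, 0.18 with quantile normalization, and 0.28 to 0.52 on leaving out single libraries. On reads it was 0.50, with library totals 0.11, with totals less technical RNA 0.13, with the length trend removed 0.65, without both libraries numbered 1 0.58, and 0.31 to 0.58 on leaving out single libraries. Signs turned in these cases, against values on FPKM that include 0.74 for PCNA, -0.79 for PRIM1, 0.37 for POLB and 0.30 for POLE. With FPKM as deposited CHAF1A had -0.26 and CHAF1B -0.24, with library totals CHAF1A -0.28, CHAF1B -0.23 and POLB -0.088, and with totals less technical RNA CHAF1A -0.26, CHAF1B -0.16 and POLB -0.039. Quantile normalization gave CHAF1A -0.31 and RNASEH2B 0.17, and array weights CHAF1A -0.038. Without both libraries numbered 1, POLE had -0.10, CHAF1A -0.11 and PRIM1 0.0074 on FPKM, and PRIM1 0.18 on reads. With the length trend removed PCNA had -0.012, POLA1 0.14, RNASEH2B 0.23, MCM6 0.085 and POLB -0.42. Leaving out single libraries, on FPKM or on reads, moved RFC4 between -0.60 and 0.17, POLA1 between -0.52 and 0.016, CHAF1A between -0.11 and 0.29, CHAF1B between -0.25 and 0.41, RNASEH2B between -0.71 and 0.25, MCM6 between -0.40 and 0.13, PRIM1 between -1.89 and 0.45, POLB between -0.070 and 0.68 and POLH between -0.59 and 0.073. The cause of these shifts was not tested. Depth limits the members most in control 1, where they had 11 to 54 reads each.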
